A study of Mus musculus with 11 samples.

Results

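Nearly all mitochondrial proteins are made in the cytosol and carried into the organelle by a set of translocases. Precursors enter through the TOM complex of the outer membrane. Those with an amino-terminal presequence pass the TIM23 channel of the inner membrane, are pulled in by an ATP-driven motor and lose the presequence to a matrix peptidase. Metabolite carriers cross the intermembrane space bound to small TIM chaperones and are inserted by the TIM22 complex, and small cysteine-rich proteins are trapped in that space by the Chchd4 relay. Beta cells depend on mitochondrial ATP to couple glucose to insulin release.

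The genes of this machinery were taken by name: every symbol that starts with Timm or Tomm and a digit, and Pam16, Dnajc19, Grpel1, Hspa9, Chchd4, Pmpca and Pmpcb. This gave 33 of the 32285 genes in the count table. Of these, 32 are annotated as protein-coding, and Tomm6os is an antisense RNA gene that the name pattern took in. Counts were high enough to test for 31 of the 33; Tomm20l had no read in any library and Timm8a2 had 5 reads over all libraries.

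The RNA came from islets of mice aged 16 weeks, all after 4 weeks of high-fat diet. The 4 groups were islets labelled as a beta cell knockout of Zzef1 (βZKO_Mip, the label giving no further allele) kept for 24 h in 10 µM azoramide (3 libraries), the same genotype in DMSO, the solvent (2 libraries), islets of littermate controls in azoramide (3 libraries) and control islets in DMSO (3 libraries). Azoramide is a compound described as acting on protein folding in the endoplasmic reticulum. Each library pooled islets of at least 3 mice, and the sources do not state whether libraries of a genotype share mice. Column names of the counts do pair them: an azoramide and a DMSO library of the same genotype and number share a stem. The main fit treats all libraries as unpaired, and its p-values measure the spread between these libraries. Fits with the number as a block are given at the end. The deletion was aimed at beta cells, while the RNA came from whole islets, so other islet cells keep the gene.

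Library totals ran from 16832800 to 19501813 counts. Levels below are CPM, counts scaled to a common library size with a correction for composition. The test did not set the genotypes apart by the targeted gene: Zzef1 measured 72.8 ± 4.53 CPM in labelled knockout islets with azoramide (SD, n = 3), 81.5 ± 2.93 CPM in labelled knockout islets with DMSO (SD, n = 2), 66.6 ± 2.02 CPM in control islets with azoramide and 97.2 ± 12.2 CPM in control islets with DMSO (SD, n = 3 each). With DMSO both labelled knockout libraries (79.4 and 83.5 CPM) lay below all control libraries (85.4 to 109.7 CPM). With azoramide the labelled knockout libraries (68.7 to 77.7 CPM) lay above the control libraries (64.3 to 68.1 CPM). Zzef1 itself fell with azoramide in control islets (-0.55, edgeR, adjusted p = 3.46e-05) and was not called in labelled knockout islets (-0.16, edgeR, adjusted p = 0.153). Labelled knockout over control, the log2 difference was 0.13 with azoramide (edgeR, adjusted p = 0.968) and -0.26 with DMSO (edgeR, adjusted p = 0.999). The genotype is therefore called "labelled knockout" throughout. Labelled knockout azoramide library 3 and control DMSO library 2 stood at opposite ends of the second principal component, which held 11.8% of the variance. The 6 beta cell markers were abundant in every library, with summed levels of 128100 to 189600 CPM, and the summed adipocyte markers stayed below 0.565 CPM. Exocrine markers were also present: the 7 acinar markers summed to 522 to 5372 CPM and the 5 ductal markers to 941.6 to 1548 CPM. The acinar sums varied widely within groups, at 901.4 to 5372 CPM in labelled knockout libraries with azoramide and 522 to 2022 CPM with DMSO. In control libraries they ran from 1612 to 4175 CPM with azoramide and from 800.3 to 4398 CPM with DMSO.

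Azoramide raised most of the import genes in both genotypes. In labelled knockout islets 23 of the 31 tested genes rose and 0 fell at an adjusted p under 0.05, where 20.0% of all 15093 tested genes were called higher and 19.8% lower. In control islets 22 rose and 0 fell, against 19.3% of all tested genes called higher and 19.8% lower. The 22 genes were called in both genotypes, and Timm9 was the one called in labelled knockout islets alone, a difference that the interaction test did not call. The median log2 fold change of the 31 genes was 0.42 in labelled knockout islets and 0.44 in control islets, beside -0.0032 and -0.020 over all tested genes in the same order of genotypes. Among the import genes that rose, 11 did so by at least 1.5-fold in labelled knockout islets and 11 in control islets. The share of all tested genes that rose by as much was not counted.

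The sizes of effect were alike in both genotypes, which share no library in these comparisons. Across the 31 genes the log2 fold changes had a Pearson correlation of 0.912, given as a description because genes of a library are not independent. The same correlation over all tested genes was not calculated. All azoramide libraries lay above all DMSO libraries for 25 of the 31 genes in labelled knockout islets, where this held for 30.2% of all tested genes. In control islets it held for 23 of the 31, against 23.8% of all tested genes. All azoramide libraries lay below all DMSO libraries for 2 of the 31 in labelled knockout islets (Tomm34 and Tomm6os, beside 31.4% of all tested genes) and for 0 of the 31 in control islets (beside 24.6%). Summed over the 33 genes without Hspa9, by far the most abundant of them, the level was 1418, 1412 and 1394 CPM in the labelled knockout libraries with azoramide against 1039 and 1046 CPM with DMSO. In control islets the sum was 1442, 1408 and 1431 CPM with azoramide against 1077, 1126 and 1023 CPM with DMSO. Control DMSO library 2 had the highest value of its group for 19 of the 31 tested import genes, as it did for 38.4% of all tested genes.

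**Figure D1:**
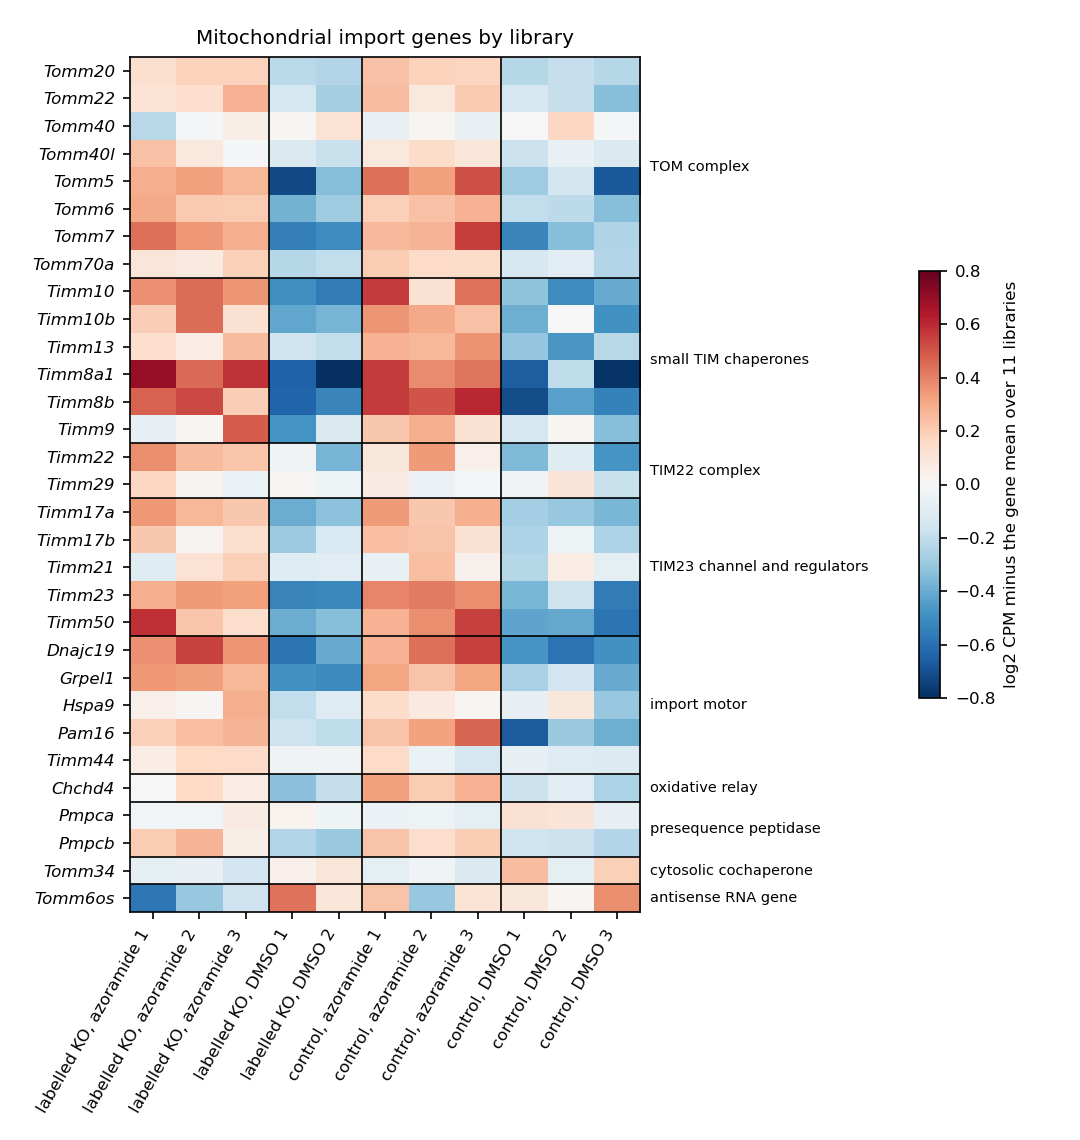
Heat map of the 31 tested import genes (rows, grouped by role) in the 11 libraries (columns); colour is log2 CPM minus the mean of that gene over the libraries, red above and blue below. The azoramide columns are red and the DMSO columns blue for most rows, while Tomm40, Timm29, Pmpca and Tomm34 show little colour and Tomm6os runs the other way in labelled knockout islets.

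Summed levels of cell type markers moved with azoramide. In bulk samples, fewer cells of a type and less RNA per cell cannot be told apart. The 5 alpha cell markers summed to 23560 to 25300 CPM in labelled knockout libraries with azoramide against 14420 to 16420 CPM with DMSO, and to 24280 to 27670 CPM in control libraries with azoramide against 14320 to 15840 CPM with DMSO; 4 of the 5 rose in labelled knockout islets and 3 in control islets. The 6 beta cell markers summed to 137000 to 171800 CPM in labelled knockout libraries with azoramide against 128100 to 131300 CPM with DMSO, and in control libraries to 148900 to 189600 CPM with azoramide against 138000 to 140200 CPM with DMSO. Most of the beta cell list did not follow its sum: 1 of the 6 rose and 3 fell in labelled knockout islets, 2 rose and 3 fell in control islets, and the median log2 fold changes were -0.50 and -0.56. Iapp rose in both genotypes (0.75 and 0.77), and Ins1, Mafa and Nkx6-1 fell in both. The 2 PP cell markers summed to 3263 to 3893 CPM in labelled knockout libraries with azoramide against 2323 to 2410 CPM with DMSO. In control libraries they summed to 3615 to 4088 CPM with azoramide against 2042 to 2818 CPM with DMSO. Of the 2, 1 rose in labelled knockout islets and 2 in control islets. The sum of the 6 macrophage markers was higher and that of the 5 endothelial markers lower in every azoramide library than in any DMSO library, at 50.4 to 83.6 CPM against 35.3 to 45.03 CPM and at 192.2 to 241.8 CPM against 250.7 to 266.6 CPM. Of the macrophage markers 1 rose in each genotype (Cd68) and 0 fell, with medians of 0.35 in labelled knockout and -0.0068 in control islets, and of the endothelial markers 2 fell in each (Cdh5 and Plvap), with medians of -0.26 and -0.20. The 6 stellate and fibroblast markers summed to 11.4 to 19.5 CPM in labelled knockout libraries with azoramide against 21.2 to 25.15 CPM with DMSO. In control libraries they summed to 12.45 to 17.1 CPM with azoramide against 18.4 to 20.4 CPM with DMSO. Of the 5 tested, 1 fell in labelled knockout islets and 2 in control islets. The part of these cell type markers in the results on import genes was not tested.

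Most small TIM chaperones rose. They form ring-shaped hexamers that shield hydrophobic precursors between the membranes, Timm9 with Timm10 and Timm8a1 with Timm13. In labelled knockout islets 6 of the 6 tested rose, with a median log2 fold change of 0.78, and in control islets 5 of the 6 rose, with a median of 0.71. Timm8b (chromosome 9, 50603910 to 50605320, plus strand, GRCm38) measured 33.5, 34.8 and 27.7 CPM in labelled knockout libraries with azoramide against 15.5 and 16.8 CPM with DMSO. The control values were 35.6, 34.2 and 36.7 CPM with azoramide against 14.8, 17.9 and 16.6 CPM with DMSO. The groups did not overlap in either genotype. Its log2 fold change was 0.99 in labelled knockout islets (SE 0.11, edgeR, adjusted p = 4.49e-06) and 1.11 in control islets (SE 0.10, edgeR, adjusted p = 2.58e-07).

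Timm8a1 (chromosome X, 134537256 to 134541865, minus strand), whose human counterpart is mutated in a deafness and dystonia syndrome, measured 29.5, 24.8 and 27.1 CPM in labelled knockout libraries with azoramide against 11.6 and 10.4 CPM with DMSO. Control islets gave 26.7, 23.6 and 24.4 CPM with azoramide against 11.5, 15.8 and 10.5 CPM with DMSO. Even the highest DMSO value, in control library 2, lay well below the lowest azoramide value. The log2 fold change was 1.30 in labelled knockout islets (SE 0.15, edgeR, adjusted p = 3.53e-06) and 0.98 in control islets (SE 0.13, edgeR, adjusted p = 1.43e-05). Timm8a1 shares 43.1% of its transcript with the pseudogene Gm9797, which is not in the count table.

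Of the remaining small TIMs, Timm10 rose by 0.92 and 0.79 (log2, labelled knockout and control) and Timm10b, which docks the chaperones at TIM22, by 0.65 and 0.57. Timm13 measured 19.9, 18.9 and 21.5 CPM in labelled knockout libraries with azoramide against 16.2 and 15.8 CPM with DMSO, and 22.0, 21.8 and 23.2 CPM in control libraries with azoramide against 14.6, 13.1 and 15.5 CPM with DMSO. Its log2 fold change was 0.33 in labelled knockout islets (edgeR, adjusted p = 0.0217) and 0.63 in control islets (edgeR, adjusted p = 5.81e-05). Timm9 had log2 fold changes of 0.45 in labelled knockout islets (edgeR, adjusted p = 0.0366) and 0.36 in control islets (edgeR, adjusted p = 0.0598). The calls of Timm13 and Timm9 in labelled knockout islets lay near the threshold. Without azoramide library 3 they were lost, at 0.27 (edgeR, adjusted p = 0.067) and 0.26 (adjusted p = 0.172). Without DMSO library 1, which leaves 1 library in that group, the log2 fold changes were 0.34 and 0.28. Without DMSO library 2 that of Timm13 was 0.31. The size of the Timm13 effect thus changed little, while that of Timm9 was smaller without either azoramide library 3 or DMSO library 1. Without control azoramide library 1 Timm9 was at 0.45 (adjusted p = 0.0518), and with the compared groups alone at 0.45 (adjusted p = 0.0711). In control islets Timm9 passed the test without DMSO library 2 (adjusted p = 0.0269), without labelled knockout azoramide library 3 (0.0238), without the filter on low counts (0.0395) or with the compared groups alone (0.027).

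**Figure D2:**
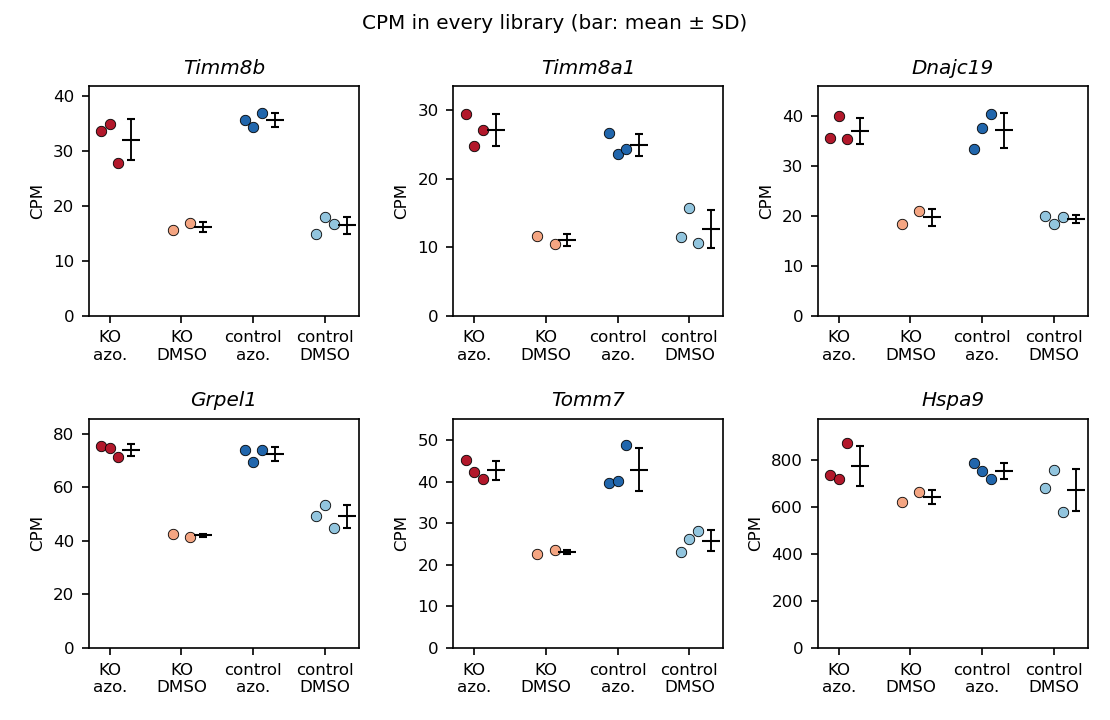
CPM of 6 import genes in every library (points) with the mean and SD of each group (bars); the vertical axes start at 0, and groups run from labelled knockout with azoramide and with DMSO to control with azoramide and with DMSO. For Timm8b, Timm8a1, Dnajc19, Grpel1 and Tomm7 all azoramide libraries lie above all DMSO libraries, whereas for Hspa9 control DMSO library 2, at 756.6 CPM, lies among the azoramide libraries.

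In the import motor, the co-chaperones rose while the chaperone itself and its tether did not pass the test. The motor is built on the matrix Hsp70, Hspa9, which Timm44 holds at the channel; Dnajc19 is a J protein that stimulates its ATPase, Pam16 is a J-like partner that restrains Dnajc19, and Grpel1 releases the nucleotide. Of these 5 genes 3 rose in labelled knockout islets and 3 in control islets. Dnajc19 (chromosome 3, 34056020 to 34081321, minus strand) measured 35.6, 40.1 and 35.4 CPM in labelled knockout libraries with azoramide against 18.5 and 20.95 CPM with DMSO. In control islets it measured 33.5, 37.6 and 40.5 CPM with azoramide against 19.9, 18.4 and 19.8 CPM with DMSO. Every azoramide library thus held more Dnajc19 than any DMSO library, with log2 fold changes of 0.91 in labelled knockout islets (SE 0.11, edgeR, adjusted p = 4.53e-06) and 0.94 in control islets (SE 0.09, edgeR, adjusted p = 7.31e-07).

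Grpel1 (chromosome 5, 36464998 to 36474080, plus strand) measured 75.5, 74.9 and 71.5 CPM in labelled knockout libraries with azoramide against 42.5 and 41.7 CPM with DMSO, and in control libraries 74.0, 69.6 and 73.8 CPM with azoramide against 49.5, 53.3 and 44.9 CPM with DMSO. The azoramide values were alike in both genotypes, and the labelled knockout libraries with DMSO lay below the control libraries with DMSO. Its log2 fold change was 0.81 in labelled knockout islets (SE 0.08, edgeR, adjusted p = 6.28e-07), the smallest p of the import genes there, and 0.56 in control islets (SE 0.07, edgeR, adjusted p = 7.14e-06). Pam16 measured 18.2, 18.9 and 19.3 CPM in labelled knockout libraries with azoramide against 14.2 and 13.9 CPM with DMSO, and 18.7, 19.9 and 22.0 CPM in control libraries with azoramide against 10.1, 13.03 and 12.2 CPM with DMSO. Pam16 rose by 0.42 in labelled knockout islets (edgeR, adjusted p = 0.0101) and by 0.78 in control islets (edgeR, adjusted p = 2.69e-05). The call in labelled knockout islets was lost without either DMSO library, which leaves 1 library in that group. The size of the effect changed little, at 0.43 without DMSO library 1 and 0.40 without DMSO library 2. Pam16 has a copy, Gm9803, that is 100% identical over 89.6% of the transcript and has its own row in the table, so reads could be divided between them.

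Hspa9, the most abundant import gene per length, measured 733.2, 716.9 and 870.8 CPM in labelled knockout libraries with azoramide against 621.9 and 663.4 CPM with DMSO. The control values were 787.1, 751.0 and 719.0 CPM with azoramide against 680.7, 756.6 and 576.8 CPM with DMSO. The control groups overlapped and the labelled knockout groups did not. Its log2 fold change was 0.27 in labelled knockout islets (SE 0.10, edgeR, adjusted p = 0.0576) and 0.16 in control islets (SE 0.09, edgeR, adjusted p = 0.189). In labelled knockout islets it passed without azoramide library 2 (0.32, edgeR, adjusted p = 0.0424). It also passed there without control DMSO library 2 (adjusted p = 0.0211) or 3 (adjusted p = 0.0118). Those libraries are not part of that comparison, and its log2 fold change stayed at 0.27 in both fits. In control islets it passed without DMSO library 2 (0.26, adjusted p = 0.0269). The DESeq2 Wald test also called it in labelled knockout islets (adjusted p = 0.024), as did a fit of the compared groups alone (0.0249). Timm44 had log2 fold changes of 0.15 in labelled knockout islets (edgeR, adjusted p = 0.192) and 0.08 in control islets (edgeR, adjusted p = 0.441).

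The TIM23 channel genes rose with 1 exception. Timm23 and Timm17a or Timm17b form the channel, Timm50 receives the presequence and Timm21 links the channel to TOM and to the respiratory chain. Timm23 (chromosome 14, 32180162 to 32201898, minus strand) measured 92.6, 95.8 and 95.01 CPM in labelled knockout libraries with azoramide against 52.1 and 53.0 CPM with DMSO. Control islets gave 98.97, 100.9 and 97.6 CPM with azoramide against 58.6, 67.4 and 51.3 CPM with DMSO. The azoramide libraries stood close together, and the control DMSO libraries spread more widely. Timm23 rose by 0.85 in labelled knockout islets (SE 0.09, edgeR, adjusted p = 1.34e-06) and by 0.75 in control islets (SE 0.08, edgeR, adjusted p = 9.86e-07). Timm23 has 5 near-identical copies in the genome, of which 0 are in the count table, so reads that map to several places may have been lost in every library.

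Timm17a (chromosome 1, 135295213 to 135313778, minus strand) measured 71.9, 67.8 and 65.5 CPM in labelled knockout libraries with azoramide against 42.8 and 45.01 CPM with DMSO, and 71.5, 65.6 and 68.6 CPM in control libraries with azoramide against 46.6, 45.6 and 43.7 CPM with DMSO. The groups stood far apart in both genotypes. It rose by 0.64 in labelled knockout islets (SE 0.07, edgeR, adjusted p = 4.07e-06) and by 0.60 in control islets (SE 0.06, edgeR, adjusted p = 1.99e-06). Its X-linked paralog Timm17b rose by 0.33 (edgeR, adjusted p = 0.0173) and 0.37 (edgeR, adjusted p = 0.00389) in labelled knockout and control islets; in labelled knockout islets the call was lost without azoramide library 1 (adjusted p = 0.0715) or DMSO library 1 (adjusted p = 0.184). Timm50 rose by 0.70 in labelled knockout islets and by 0.87 in control islets. Timm21 had log2 fold changes of 0.16 and 0.15 and was not called (edgeR, adjusted p = 0.383 and 0.361).

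Of the TIM22 complex, the pore gene rose and its metazoan subunit did not pass the test. Timm22 measured 22.9, 21.1 and 20.6 CPM in labelled knockout libraries with azoramide against 17.3 and 13.7 CPM with DMSO, and 18.8, 22.4 and 18.2 CPM in control libraries with azoramide against 13.9, 16.5 and 12.8 CPM with DMSO. The groups did not overlap in either genotype, with log2 fold changes of 0.48 in labelled knockout islets (SE 0.14, edgeR, adjusted p = 0.00948) and 0.46 in control islets (SE 0.12, edgeR, adjusted p = 0.00619). Without labelled knockout DMSO library 2, the lowest of its genotype, the first of these was 0.31 (adjusted p = 0.181). Timm29 had log2 fold changes of 0.06 and 0.03, with overlapping groups in both genotypes.

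At the outer membrane 7 of the 8 tested TOM genes rose in labelled knockout islets and 7 of 8 in control islets, with median log2 fold changes of 0.38 and 0.41. Tomm20, the presequence receptor (chromosome 8, 126930667 to 126945844, minus strand), measured 165.1, 171.6 and 172.1 CPM in labelled knockout libraries with azoramide against 130.2 and 128.4 CPM with DMSO. In control islets it measured 177.9, 172.1 and 170.5 CPM with azoramide against 128.8, 133.1 and 129.1 CPM with DMSO. The spread within each group was small, so that log2 fold changes of 0.39 (SE 0.06, edgeR, adjusted p = 6.33e-05) and 0.41 (SE 0.05, edgeR, adjusted p = 1.21e-05) gave the smallest p of the TOM genes in control islets. Tomm70a, the receptor for carriers brought by Hsp70 and Hsp90, rose by 0.33 and 0.32, and Tomm22, the central receptor, by 0.38 and 0.40, again labelled knockout before control. Without labelled knockout DMSO library 2, Tomm22 in labelled knockout islets was at 0.32 (adjusted p = 0.0637), and with an offset for gene length and GC content it was at -0.05 in labelled knockout and 0.01 in control islets, not called in either.

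The small TOM subunits, which help to assemble and hold the pore, also rose: Tomm7 by 0.89 in labelled knockout islets and 0.73 in control islets, Tomm5 by 0.81 and 0.78, and Tomm6 by 0.57 and 0.48. With the offset Tomm7 was at 0.30 and 0.20, Tomm5 at 0.29 and 0.31 and Tomm6 at 0.40 and 0.29, beside 0.29 and 0.35 for Tomm20 and 0.25 and 0.30 for Tomm70a; Tomm5 was then called in neither genotype and Tomm7 in labelled knockout islets alone. Tomm7 (chromosome 5, 23838944 to 23844161, minus strand) measured 45.2, 42.4 and 40.7 CPM in labelled knockout libraries with azoramide against 22.7 and 23.5 CPM with DMSO, and 39.8, 40.2 and 48.9 CPM in control libraries with azoramide against 23.0, 26.3 and 28.1 CPM with DMSO. Its adjusted p was 7.93e-06 in labelled knockout islets and 1.33e-05 in control islets (edgeR). Tomm40, the beta-barrel pore itself, measured 26.1, 30.2 and 31.6 CPM in labelled knockout libraries with azoramide against 30.7 and 32.9 CPM with DMSO, and 29.3, 30.8 and 29.2 CPM in control libraries with azoramide against 30.5, 34.2 and 30.2 CPM with DMSO. The groups overlapped in both genotypes, and its log2 fold changes were -0.12 (95% interval -0.33 to 0.09) in labelled knockout islets and -0.09 (95% interval -0.27 to 0.10) in control islets.

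Its paralog Tomm40l rose by 0.25 in labelled knockout islets (edgeR, adjusted p = 0.0302) and by 0.22 in control islets (edgeR, adjusted p = 0.0359). Those calls lay near the threshold. In labelled knockout islets the call was lost without azoramide library 1 (0.18, edgeR, adjusted p = 0.139). It was also lost without DMSO library 1 (0.28) or 2 (0.23), which leaves 1 library in that group. In control islets it was lost without azoramide library 1 (adjusted p = 0.0553), 2 (0.0981) or 3 (0.0725), or DMSO library 1 (0.121) or 3 (0.0707). Without the filter on low counts it was lost as well (0.0514). In these control fits the log2 fold change changed little, from 0.19 to 0.24. Tomm40l also shares 64.3% of its exonic bases with Nr1i3 on the opposite strand, and whether the counting used strand is not given in the sources used here. The same limit holds for Tomm6, of which 219 exonic bases overlap Tomm6os. Tomm6 also shares 859 exonic bases (75.95%) with Gm21981 on the same strand, which strand cannot set apart. Gm21981 is not in the count table, and how reads of that stretch were counted is not known. The limit of strand also holds for other import genes with exonic bases shared with a gene on the opposite strand. Among them are Tomm6os (41.5% with Prickle4), Pmpca (20.4% with Inpp5e), Pam16 (18.7% with Glis2) and Timm8b (15.6% with Nkapd1).

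Of the remaining genes, Chchd4, the oxidoreductase that traps cysteine-rich proteins such as the small TIMs, measured 24.8, 27.6 and 25.8 CPM in labelled knockout libraries with azoramide against 19.7 and 21.7 CPM with DMSO. The control values were 31.1, 28.5 and 30.1 CPM with azoramide against 21.9, 23.3 and 20.8 CPM with DMSO. All azoramide libraries lay above all DMSO libraries within each genotype, and Chchd4 rose by 0.34 in labelled knockout islets (edgeR, adjusted p = 0.0099) and by 0.44 in control islets (edgeR, adjusted p = 0.000531). Without labelled knockout DMSO library 1, the lower of its pair, the value in labelled knockout islets was 0.27 (adjusted p = 0.121).

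The presequence peptidase is a heterodimer, of which 1 subunit was called. Pmpcb, the catalytic subunit, measured 81.5, 85.6 and 73.2 CPM in labelled knockout libraries with azoramide against 60.1 and 57.6 CPM with DMSO, and 83.0, 77.9 and 81.4 CPM in control libraries with azoramide against 63.3, 62.9 and 60.2 CPM with DMSO. It rose by 0.45 (edgeR, adjusted p = 0.000115) and 0.38 (edgeR, adjusted p = 0.000171) in labelled knockout and control islets. Pmpca, which binds the precursor, had log2 fold changes of 0.01 (95% interval -0.14 to 0.15) and -0.11 (95% interval -0.24 to 0.02), and was called lower in control islets without DMSO library 3 (-0.16, adjusted p = 0.0489). The difference between the subunits was not tested.

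Tomm34, a cytosolic cochaperone that binds Hsp70 and Hsp90, measured 32.1, 32.3 and 30.5 CPM in labelled knockout libraries with azoramide against 34.7 and 36.2 CPM with DMSO, and 32.2, 33.1 and 31.2 CPM in control libraries with azoramide against 40.2, 32.1 and 38.7 CPM with DMSO. Control DMSO library 2 lay among the azoramide libraries. Its log2 fold changes were -0.17 in labelled knockout islets (edgeR, adjusted p = 0.183) and -0.20 in control islets (edgeR, adjusted p = 0.0769). Leaving out DMSO library 2 made it lower in control islets (-0.29, adjusted p = 0.00696). Tomm6os, the antisense RNA, measured 2.52, 3.06 and 3.36 CPM in labelled knockout libraries with azoramide against 5.08 and 4.03 CPM with DMSO, a log2 fold change of -0.61 (SE 0.24, edgeR, adjusted p = 0.0512). It crossed the threshold without labelled knockout azoramide library 3 (adjusted p = 0.0422), control azoramide library 2 (0.0462) or control DMSO library 2 (0.048). In control islets its log2 fold change was -0.14, with overlapping groups.

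**Figure D3:**
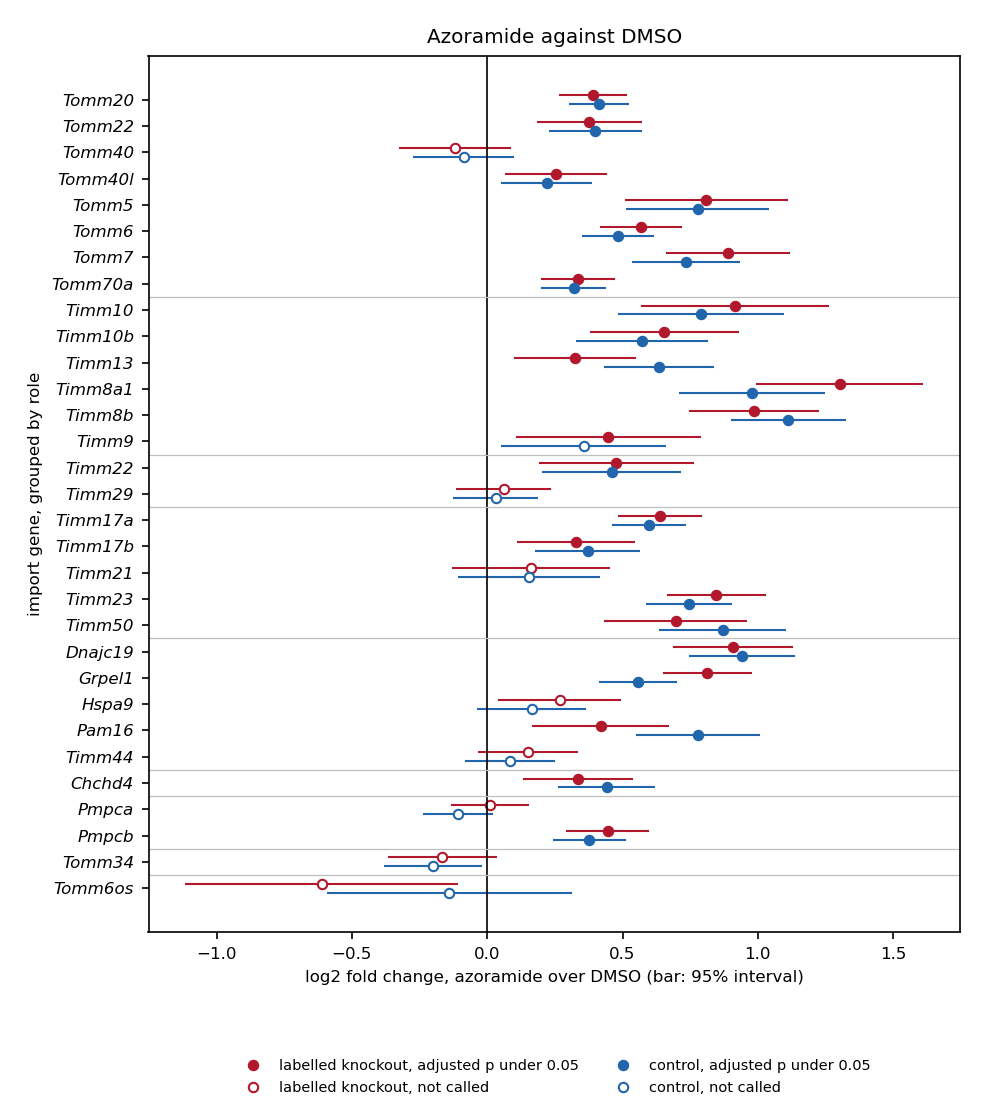
Log2 fold change of the 31 tested import genes, azoramide over DMSO (horizontal axis), in labelled knockout islets (red, upper of each pair) and control islets (blue), with 95% intervals from the edgeR fit; filled points passed an adjusted p of 0.05 and rows are grouped by role. Filled points lie right of 0 throughout, from 0.22 to 1.30, and the genes with open points in both genotypes are Timm44, Tomm40, Tomm34, Hspa9, Timm21, Pmpca, Timm29 and Tomm6os.

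Levels per length (CPM per kilobase of exon) differed widely among the genes, as means over libraries. In control islets with DMSO, Hspa9 stood at 155.8 ± 20.9, followed by Tomm6 at 45.7, Timm23 at 33.1 and Timm8b at 31.7, and the lowest tested gene of the import proteins was Timm21 at 3.10. Of the motor's co-chaperones, Dnajc19 stood at 9.20 ± 0.67 and 4.90 ± 0.43 in labelled knockout islets with azoramide and with DMSO, and at 9.23 ± 0.87 and 4.81 ± 0.21 in control islets with azoramide and with DMSO (SD, n = 3, except n = 2 for labelled knockout with DMSO). Hspa9 in labelled knockout islets stood at 179.5 ± 19.6 with azoramide and 149.1 ± 6.80 with DMSO, so on this scale the chaperone remained far more abundant than its co-chaperones under both treatments.

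Short genes rose more than long ones with azoramide, among all genes and among the import genes. The import genes are shorter than most, with a median exonic length of 3183 bases against 4269 over all tested genes. Across the 31 genes, the Spearman correlation of the log2 fold change with exonic length was -0.427 in labelled knockout islets and -0.506 in control islets, where over all 15089 tested genes with a length it was -0.286 and -0.337; these are descriptions across genes that share the same libraries. Of the 11 import genes among the shortest tested genes (the quartile of 168 to 2618 bases) 11 rose in labelled knockout islets and 11 in control islets, where 28.9% and 30.6% of all genes of that quartile were called higher.

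An offset that removes the smooth trend of counts with exonic length and GC content from each library was therefore fitted. With it, 19 import genes rose and 0 fell in labelled knockout islets, where 14.0% of all tested genes were called higher and 10.5% lower. In control islets 19 rose and 0 fell, against 14.0% called higher and 9.08% lower. The medians of the 31 genes were 0.29 in labelled knockout islets and 0.31 in control islets, and 17 genes rose in both. Calls that the offset ended were Timm13 (0.28), Timm9 (0.25), Tomm22 (-0.05), Timm17b (0.25) and Tomm5 (0.29) in labelled knockout islets, and Tomm22 (0.01), Tomm7 (0.20) and Tomm5 (0.31) in control islets. Timm44 passed with the offset in labelled knockout islets (0.28, edgeR, adjusted p = 0.034). Several values were more than 1.5 times smaller with the offset yet stayed past the threshold, namely Timm8b at 0.48 and Timm10 at 0.58, Tomm7 at 0.30 and Dnajc19 at 0.59 in labelled knockout islets. In control islets these were Timm8b at 0.67, Timm10 at 0.46, Timm23 at 0.48, Timm8a1 at 0.65 and Tomm6 at 0.29. Tomm40l moved up, to 0.44 in labelled knockout islets and 0.38 in control islets. Timm50, Timm17a, Pam16 and Grpel1 kept 0.85, 0.59, 0.34 and 0.69 in labelled knockout islets and 0.96, 0.60, 0.69 and 0.46 in control islets.

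**Figure D4:**
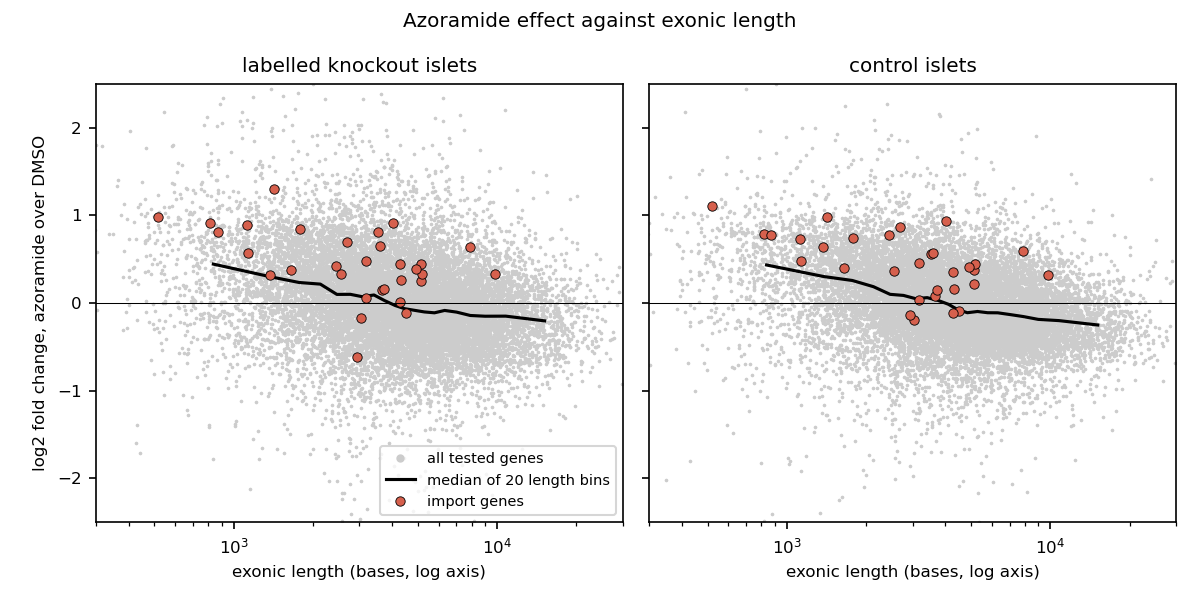
Log2 fold change, azoramide over DMSO, against exonic length (log axis) for all tested genes with a length (grey, 15089), the median in 20 bins of equal gene number (black line) and the import genes (orange), in labelled knockout islets (left) and control islets (right); 71 and 49 genes lie outside the axes. The black line falls with length in both panels, and most import genes lie above it.

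Under all 21 alternatives run, 13 import genes rose in both genotypes: Dnajc19, Grpel1, Pmpcb, Timm10, Timm10b, Timm17a, Timm23, Timm50, Timm8a1, Timm8b, Tomm20, Tomm6 and Tomm70a. Among the alternatives were the offset, plain library totals, a different test and the omission of each library. The share of all tested genes that rose under every alternative was not counted. The scaling between libraries matters for the genes near 0. Scaled by plain library totals, the tested genes as a whole shifted to a median of -0.16 in labelled knockout islets and -0.19 in control islets, against -0.0032 and -0.020. Under that scaling 16 import genes rose and 3 fell in labelled knockout islets (Tomm40, Tomm34 and Tomm6os fell). Of all 15093 tested genes 1866 rose and 4542 fell there. In control islets 19 import genes rose and 3 fell (Tomm40, Tomm34 and Pmpca fell), beside 1628 and 4943 of all tested genes. The calls lost were Tomm40l (0.10), Pam16 (0.26), Timm13 (0.17), Timm22 (0.32), Timm9 (0.29), Timm17b (0.17) and Chchd4 (0.18) in labelled knockout islets, and Tomm40l (0.05), Timm22 (0.30) and Timm17b (0.20) in control islets.

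The labelled genotype had no import gene past the threshold. With azoramide, labelled knockout against control, 0 of 31 import genes were called by edgeR (0.00% of all tested genes in either direction), 1 had an unadjusted p under 0.05 against 754 of all tested genes, and DESeq2 called 2 genes of the whole table, 0 of them import genes. Chchd4 had the smallest p: the values above gave a log2 difference of -0.20 (SE 0.08, edgeR, adjusted p = 0.958), with all 3 labelled knockout libraries below all 3 control libraries. Next were Timm44 at 0.13, with 40.5, 43.5 and 43.3 CPM in labelled knockout against 43.2, 37.5 and 35.5 CPM in control libraries with azoramide, and Tomm6os at -0.37, with control values of 4.41, 3.06 and 4.06 CPM. For both genes the libraries of the genotypes overlapped.

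With DMSO, 0 of 31 import genes were called between the genotypes by edgeR (0.00% of all tested genes in either direction), 1 had an unadjusted p under 0.05 against 531 of all tested genes, and DESeq2 called 3 genes of the whole table, 0 of them import genes. Grpel1 was lower in both labelled knockout libraries than in any control library (-0.23, SE 0.08, edgeR, adjusted p = 0.999). Pam16 was higher in both (0.25, SE 0.12, edgeR, adjusted p = 0.999), and Timm23 stood at -0.17 with overlapping libraries. Labelled knockout libraries all lay above the control libraries for 4 of the 31 import genes and all below for 2, where this held for 9.87% and 9.57% of all tested genes. With azoramide it held for 1 and 4, against 5.57% and 5.58% of all tested genes.

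Leaving out Tomm6os, which has few reads, the 95% intervals of the import genes reached from -0.39 to 0.38 (log2, labelled knockout over control) with azoramide and from -0.51 to 0.51 with DMSO. A difference as large as these bounds in a single gene could thus have gone without a call.

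The azoramide effect did not differ between genotypes for any import gene by the interaction test. It called 0 of the 31 (0.00% of all tested genes in either direction) with edgeR, 3 had an unadjusted p under 0.05 against 563 of all tested genes, and DESeq2 called 0. The 3 were Grpel1 (0.26 higher effect in labelled knockout islets, SE 0.10), Pam16 (-0.36, SE 0.16) and Timm13 (-0.31, SE 0.14), each with an adjusted p of 0.999 (edgeR). Without Tomm6os the 95% intervals reached from -0.70 to 0.73.

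**Figure D5:**
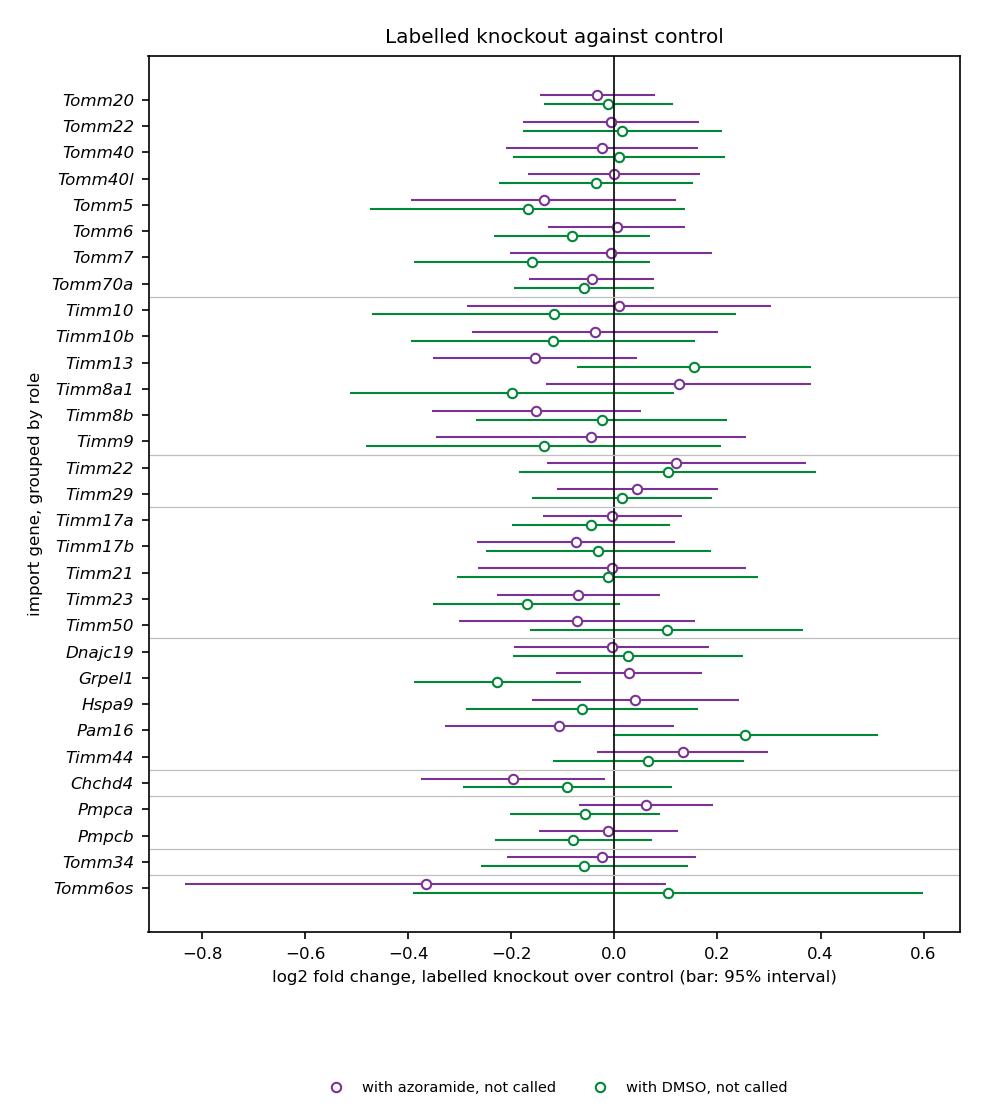
Log2 fold change of the 31 tested import genes, labelled knockout over control (horizontal axis), with azoramide (purple, upper of each pair) and with DMSO (green), with 95% intervals from the edgeR fit; all points are open because none passed an adjusted p of 0.05. The points lie between -0.37 and 0.25, and the interval is widest for Tomm6os.

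Other genes on the import route were taken as lists of known function, and values are given as labelled knockout, then control. Their counts stand beside 20.0% and 19.3% of all tested genes called higher and 19.8% in each called lower; counts near that share, as in several of the short lists, say nothing particular of a list. Of 7 MICOS genes, which form the cristae junctions and contact TOM and SAM, 7 rose in labelled knockout islets and 7 in control islets, with median log2 fold changes of 0.69 and 0.68. Apoo rose by 0.73 and 0.76, Micos13 by 0.69 and 0.73 and Chchd3 by 0.75 and 0.68; with the offset for length and GC content the counts were 5 and 6 and the medians 0.41 and 0.38, and Apoo was not called in labelled knockout islets (0.21). Of 11 cytosolic chaperones that deliver precursors 8 rose in each genotype (medians 0.38 and 0.37). They include the Hsp70 gene Hspa8 (0.72 and 0.78) and Naca (0.72 and 0.68) and Btf3 (0.66 and 0.68) of the nascent chain complex. Of 5 genes of the SAM complex, which inserts beta-barrel proteins such as Tomm40, 3 rose in each genotype (medians 0.23 and 0.33). Mtx2 was at 0.57 and 0.62, Mtx1 at 0.38 and 0.52 and Samm50, the barrel-inserting subunit, at 0.23 and 0.33. Mtx3 was called lower in control islets. Its call was lost there without azoramide library 1, 2 or 3 and without DMSO library 2 or 3. It was also lost with the compared groups alone and without the pair of libraries that stand apart. In labelled knockout islets the call of Mtx1 was lost without DMSO library 1 (adjusted p = 0.15), and that of Samm50 without azoramide library 2 (0.0813), DMSO library 1 (0.0529) or DMSO library 2 (0.16). Without labelled knockout DMSO library 1, and with plain library totals, 1 of the 5 SAM genes rose there.

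Genes for proteins that the relay and the carrier route handle were listed as well. Of 17 genes for clients of CHCHD4, 11 rose in labelled knockout islets and 14 in control islets (medians 0.56 and 0.62). Cox6b1, a subunit of cytochrome c oxidase, rose by 1.04 and 1.02, Chchd2 by 0.85 and 0.85 and the superoxide dismutase Sod1 by 0.69 and 0.65. Of 16 genes for carriers and pyruvate carrier subunits, 7 rose and 3 fell in labelled knockout islets and 7 rose and 1 fell in control islets (medians 0.26 and 0.16). Here Mpc1, a subunit of the mitochondrial pyruvate carrier, rose by 1.08 and 1.05, its partner Mpc2 by 0.50 and 0.61 and the ADP/ATP carrier Slc25a5 by 0.82 and 0.75. The partners of Chchd4 itself were called in neither genotype, Gfer having log2 fold changes of -0.01 and 0.12 and Aifm1 of 0.23 and 0.13.

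Within the matrix, 2 of 3 further motor genes rose in each genotype (medians 0.57 and 0.31). Dnajc15, the paralog of Dnajc19, rose by 0.72 and 0.69, and Grpel2, the paralog of Grpel1, by 0.57 and 0.31, the last not called with plain library totals (0.14). Of 4 folding chaperones 3 rose in each (medians 0.39 and 0.36), among them the chaperonin pair Hspe1 (0.80 and 0.72) and Hspd1 (0.47 and 0.38), of which Hspd1 was not called with the offset (0.23 and 0.16). Trap1, the Hsp90 of the matrix, rose by 0.31 and 0.33, the first being lost without labelled knockout DMSO library 1 (adjusted p = 0.0613). Of 8 proteases of quality control 4 rose and 1 fell in labelled knockout islets and 3 rose in control islets (medians 0.28 and 0.16), with Yme1l1 at 0.45 and 0.41, Clpp at 0.35 and 0.55 and Oma1 at 0.60 and 0.41. Without labelled knockout DMSO library 1 the call of Clpp was lost there (adjusted p = 0.0718) and 2 of the 8 rose, as with plain library totals; without control DMSO library 2, 5 rose in control islets. Oma1 was lost in labelled knockout islets without DMSO library 2 (adjusted p = 0.0547) and in control islets without azoramide library 2 (0.0663) or DMSO library 1 (0.0825). With the offset Clpp was lost in labelled knockout islets (0.26) and Oma1 in both (0.36 and 0.18). Of 4 genes for insertion from the matrix or partners of TIM22 and TIM23, 1 rose in labelled knockout islets and 2 in control islets (medians 0.32 and 0.17), and Romo1 rose in both (0.72 and 0.76). The insertase Oxa1l was at 0.19 and 0.25, called in control islets alone, where the call was lost without azoramide libraries 1 (adjusted p = 0.101) or 3 (0.0859) or DMSO libraries 1 (0.114) or 2 (0.111), each leaving 1 of the 4; with the offset it passed in labelled knockout islets (0.33). Without labelled knockout azoramide library 3, 2 of the 4 rose in labelled knockout islets. Of 6 further peptidases 2 rose in each (medians 0.15 and 0.22), and 0 and 1 with the offset; the inner membrane peptidase Immp1l rose by 0.79 and 0.70 but stood at 0.01 and 0.03 with the offset. The rhomboid protease Parl rose by 0.25 and 0.30, and in labelled knockout islets was lost with the offset (0.13), without azoramide library 2 (adjusted p = 0.0577) or without DMSO library 2 (0.251), which each left 1 of the 6.

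Regulators of nuclear genes for mitochondrial proteins were called at about the share of all tested genes in either direction: of 12, 3 rose and 2 fell in labelled knockout islets and 2 rose and 2 fell in control islets, with medians of -0.12 and -0.16. With the offset 1 and 0 rose, and with plain library totals 1 and 0 rose while 6 and 7 fell. Without labelled knockout DMSO library 1 or 2, 0 and 1 rose in labelled knockout islets. Tfam, which packages mitochondrial DNA, rose by 0.24 and 0.28, and the transcription factor Tfb2m by 0.27 and 0.37, and neither was called with the offset (0.11 and 0.18 for Tfam, -0.11 and 0.04 for Tfb2m). In labelled knockout islets Tfam was lost without azoramide library 1 (adjusted p = 0.0733) or DMSO library 1 (0.203), and Tfb2m without azoramide libraries 2 (0.0904) or 3 (0.079), DMSO libraries 1 (0.235) or 2 (0.0654), or with the replicate number as a block (0.0555). Yy1, a zinc-finger transcription factor, fell by 0.41 on the log2 scale in labelled knockout islets and by 0.36 in control islets, where it was not called with the offset (-0.18). Other genes of these lists called lower in at least 1 genotype were Spg7, Slc25a1, Slc25a22, Slc25a39, Atf5 and Myc, named after their values were seen. They did not all fall in both. The protease Spg7 fell in labelled knockout islets alone, as 0 proteases fell in control islets. Of the carriers 3 fell in labelled knockout islets and 1 in control islets, and of the regulators 2 fell in each, Yy1 among them.

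Promoters of the import genes were read from RefSeq (GRCm38.p6), which gave a window of 250 bases before the start for 29 of the 33 genes. The ETS motif CCGGAAG, read by GABPA among others, was found on either strand in 11 of the 29 (37.9%), where 14.5% of 11541 tested genes and 7.83% of all 27025 genes with such a window hold it. The NRF1 motif, GCGCA, then 1 base of any kind, then GCGC, was found in 3 (10.3%), where the shares were 8.61% and 4.23%. The YY1 motif AANATGGCG was found in 0 of the 29, where the shares were 2.37% and 1.29%. Among the 20 genes with a window that rose in both genotypes 7 held the ETS motif, and among the other 9 it was 4. A match of letters is a description and not a bound site.

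A selection of the genes described above, some that rose and some that did not, is printed to show where these motifs lie in the last 100 bases before both the RefSeq and the GENCODE start. Capitals mark an ETS match in Timm8b, Timm23, Tomm22 and Tomm70a and in Pmpca and Tomm34, which were not called, where Tomm22 holds 2 overlapping matches on opposite strands, and an NRF1 match in Tomm20. Dnajc19, which also rose in both genotypes, holds none of the motifs and is shown for contrast. Matches also lie in the same stretch of Timm8a2 (ETS) and Chchd4 (NRF1), which are not printed. Each sequence is written 5′ to 3′ on the strand of its gene.
Timm8b (chr9:50603801-50603900, plus strand): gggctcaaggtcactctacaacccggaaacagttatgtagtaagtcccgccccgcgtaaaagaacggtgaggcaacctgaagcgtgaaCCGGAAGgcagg
Timm23 (chr14:32201899-32201998, minus strand): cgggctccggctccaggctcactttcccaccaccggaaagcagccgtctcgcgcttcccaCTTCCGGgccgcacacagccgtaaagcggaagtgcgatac
Tomm22 (chr15:79670761-79670860, plus strand): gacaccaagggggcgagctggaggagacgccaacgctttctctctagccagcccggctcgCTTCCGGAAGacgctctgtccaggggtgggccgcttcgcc
Tomm70a (chr16:57121603-57121702, plus strand): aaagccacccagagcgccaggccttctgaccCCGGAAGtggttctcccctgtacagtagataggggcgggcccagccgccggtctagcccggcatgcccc
Tomm20 (chr8:126945922-126946021, minus strand): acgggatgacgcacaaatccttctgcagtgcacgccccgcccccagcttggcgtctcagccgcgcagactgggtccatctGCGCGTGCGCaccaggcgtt
Dnajc19 (chr3:34081355-34081454, minus strand): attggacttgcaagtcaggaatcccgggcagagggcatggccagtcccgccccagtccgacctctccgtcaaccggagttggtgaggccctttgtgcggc
Pmpca (chr2:26389239-26389338, plus strand): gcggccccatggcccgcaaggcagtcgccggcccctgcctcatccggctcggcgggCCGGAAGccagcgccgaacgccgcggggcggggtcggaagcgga
Tomm34 (chr2:164071170-164071269, minus strand): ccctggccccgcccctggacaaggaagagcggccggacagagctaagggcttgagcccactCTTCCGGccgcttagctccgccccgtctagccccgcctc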

How the data were processed

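RNA from 11 islet samples was sequenced on the DNBSEQ-T7 platform, per the labels' protocols. The deposited table holds unnormalized counts of reads for each gene and library, as its values show. The submitters' processing notes list STAR 2.7.2a, DESeq2 and the build mm10 without saying what each was used for. The sources used here do not name the counting tool, its annotation or its strand setting. Genes with near-identical copies or overlapping neighbours are therefore uncertain.

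From the counts, edgeR 4.0.16 (R 4.3.3) was run with its quasi-likelihood test, TMM scaling, robust dispersion and its filter on low counts by group. The 4 groups (11 libraries) were fitted jointly, and the group with 2 libraries thus borrows the common estimate of spread. P-values were adjusted by Benjamini-Hochberg over 15093 tested genes and called under 0.05. CPM values are after TMM scaling, and fold changes are on the log2 scale with a standard error (SE). The scripts were tested on simulated data. Libraries of a group all differed by more than sampling noise. Titles gave the groups and replicate numbers.

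GENCODE M21 (GRCm38) gave coordinates, and exonic length and GC content for 32158 genes; near-identical copies were searched for with blastn 2.17.0 at 95% identity. The import genes, the other lists and the alternatives were chosen with earlier results of these data known. Values in every library are given for the 5 import genes with the smallest p that rose in each azoramide comparison, for the smallest p in each role and for the 3 smallest p of each comparison without a call, with further genes added for their role; up to 3 genes of each other list are named, those called with the smallest p in control islets. Alternatives were DESeq2 1.42.0 size factors and its Wald test, plain library totals, no filter, the compared groups alone, the offset, replicate blocks, each library left out, and both libraries that stand apart left out; running them on the other lists was added after seeing the data. No set test was run.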

Additional observations from a re-analysis of the deposited data

How the results depend on the processing

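The number of import genes that rose ran from 16 to 24 in labelled knockout islets and from 19 to 24 in control islets over the 21 alternatives. The number of all tested genes called higher varied as well, from 1866 to 3499 in labelled knockout islets and from 1628 to 3176 in control islets. Those called lower ran from 1579 to 4542 and from 1370 to 4943, with 14089 to 21648 genes tested. The number that fell, 0 in both, was 3 in both with plain library totals and 1 in both without the pair of libraries that stand apart; leaving out single libraries gave 0 to 1 in both genotypes. Where a group is left with 1 library, that library is assumed to vary like the other groups. No import gene was called between genotypes or in the interaction under any alternative run.

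With plain library totals the sign turned for Timm44 (-0.006 in labelled knockout and -0.086 in control islets), Timm29 (-0.094 and -0.14), Pmpca (-0.15, labelled knockout) and, in control islets, Hspa9 (-0.002), Timm21 (-0.012), Aifm1 (-0.039) and Gfer (-0.047). With the offset it turned for Tomm40 (0.082 and 0.083), Timm21 (-0.17 and -0.11) and, in labelled knockout islets, Tomm22 (-0.047) and Tfb2m (-0.11). None of these values was called; the cause was not tested. Leaving out single libraries, the log2 fold change ranged in labelled knockout islets from -0.021 to 0.040 for Pmpca, -0.0053 to 0.11 for Timm29 and -0.093 to 0.090 for Gfer, and in control islets from -0.038 to 0.10 for Timm29 and -0.24 to 0.00 for Tomm6os; without the pair that stands apart Pmpca in labelled knockout islets was -0.020.

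The labels do not say that a replicate number marks shared mice, and deviations of same-numbered libraries within a genotype correlated at 0.037 and -0.144 (labelled knockout) and 0.062, 0.107 and -0.016 (control); with 2 labelled knockout DMSO libraries each value there has a mirror image of opposite sign. Column names pair same-numbered libraries by a shared stem, but these correlations did not show a shared source, and the block is given as an alternative. With the replicate number as a block, 22 import genes rose and 1 fell in labelled knockout islets, beside 3027 and 3020 of all 15093 tested genes. In control islets 22 rose and 0 fell, beside 2883 and 2956. With genotype by number as the block 21 rose in labelled knockout islets, beside 3098 of all tested genes. In control islets 23 rose, beside 2972, and Pmpca in labelled knockout islets was -0.021. The replicate number as a block together with the offset gave 17 and 19 that rose, beside 2175 and 2082 of all tested genes. Tomm40 was then at 0.078 and 0.085, Timm21 at -0.20 and -0.11, and in labelled knockout islets Tomm22 at -0.067 and Tfb2m at -0.13. Depth limits the 2 genes not tested and Tomm6os, whose interval in labelled knockout islets spans -1.12 to -0.11.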
